A study of Populus alba x Populus glandulosa with 18 samples.

Results

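Roots of poplar plants labelled as knockouts of both bHLH58 and bHLH151 were compared with wild-type roots by RNA-seq. The plants were of 84K poplar, a hybrid of Populus alba and Populus glandulosa that serves as a transformable model tree. The comparison took 6 of the 18 libraries, 3 of bhlh58/151-KO (line 32) and 3 of WT, which the labels describe as wild type with no transgene named. Of the 71159 gene IDs in the deposited table, 40951 were tested, namely those that reached 1 FPKM in 3 or more of the 18 libraries. FPKM gives fragment numbers relative to the length of a transcript and to the size of its library. The other 12 libraries are bhlh58-KO (line 6), bhlh151-KO (line 40), bHLH58-OE (line 20) and bHLH151-OE (line 17), where KO is a knockout and OE an overexpression. The stated aim of the sequencing was to find genes up- and downstream in a root phenotype.

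The bHLH (basic helix-loop-helix) proteins are a large family of transcription factors. They bind DNA as pairs of equal or of different members at sites called E-boxes, so that members can share targets or depend on each other. In plants, members of the family are known for roles in root hair formation, in vascular development and in the uptake of iron. A double knockout is made where members may stand in for each other.

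Each genotype is 1 line, so the loss of both genes and any change particular to line 32 cannot be told apart. The labels give neither the edited alleles, nor the age of the plants, nor whether 1 plant or several gave the libraries of a genotype. The p-values therefore measure the spread between these libraries, which may be technical. The files do not pair the IDs with gene names, so the loss of the targeted genes, the tissue label and the cell types of the root were not checked, and at most 4 IDs are named here. In whole roots, fewer cells of a type and less RNA per cell cannot be told apart. Library depth is unknown, since no count is given. Between 36450 and 38499 IDs reached 1 FPKM in each of the 18 libraries. Their number was 37542 ± 145 in bhlh58/151-KO and 38145 ± 161 in WT (SD, n = 3 each). The 3 double-knockout libraries lay below the 3 WT libraries, with p = 0.1 in a two-sided exact permutation test, the smallest p that 3 against 3 libraries allow. The 100 most abundant IDs of each library held 9.80% ± 0.341 of its FPKM in bhlh58/151-KO and 10.2% ± 0.397 in WT, and the groups overlapped (exact permutation p = 0.3). The libraries of each group lay close together, with Pearson correlations over IDs of 0.984 to 0.986 within bhlh58/151-KO and 0.983 to 0.987 within WT.

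Many IDs differed between the double knockout and WT, most of them by little. Of the 40951 tested IDs, 28.8% were called (limma, Benjamini-Hochberg adjusted p under 0.05), 5150 higher (12.6%) and 6664 lower (16.3%) than in WT. The shares called higher and lower than WT were 17.6% and 30.8% in bhlh151-KO and 12.9% and 9.51% in bhlh58-KO. They were 11.5% and 20.4% in bHLH151-OE and 3.3% and 2.07% in bHLH58-OE. Among the IDs that rose in the double knockout, the median log2 fold change was 0.50, with quartiles of 0.36 and 0.74. Among those that fell, it was -0.43, with quartiles of -0.57 and -0.34. All fold changes here are differences of log2(FPKM + 1), a scale that understates the changes of low IDs. Most called changes lay between 1.2-fold and 1.5-fold, 2698 of those higher (52.4%) and 4603 of those lower (69.1%).

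On the values as deposited, the balance of direction turned with the size of the change. Between 1.5-fold and 2-fold, 1395 IDs were higher and 1326 lower. Between 2-fold and 4-fold, 580 were higher and 180 lower, and between 4-fold and 8-fold, 39 were higher and 6 lower. At 2-fold or more, 622 IDs (1.52% of those tested) were higher and 188 (0.459%) lower. Of these 810 IDs, 807 had the libraries of both groups apart, as did 96.1% of all called IDs. Such separation largely follows from choosing IDs by adjusted p on the same libraries. Of all tested IDs, 44.0% had the groups apart, with 17.6% wholly above WT and 26.4% wholly below. The share of lower IDs among all calls was 56.4% on the values as deposited, 41.6% with median-of-ratios scaling, 52.5% with quantile normalization and 64% with TPM scaling. At 2-fold or more, higher IDs outnumbered lower ones under each of these scalings. With median-of-ratios, quantile and TPM scaling, the counts were 711 against 141, 644 against 177 and 777 against 389. TPM values are larger than the FPKM values here, so the 1 added before the log2 weighs less in the TPM counts. Among all calls, higher IDs already outnumbered lower ones with median-of-ratios scaling (6457 against 4597).

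**Figure D1:**
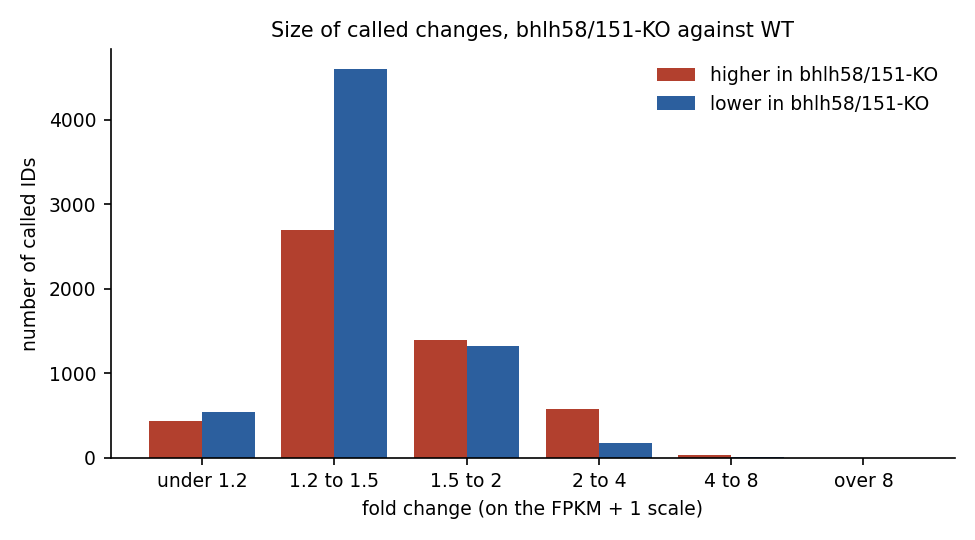
Number of IDs called in bhlh58/151-KO against WT (y axis) by the size of their fold change on the FPKM + 1 scale (x axis), with IDs higher in the double knockout in red and lower ones in blue. On the values as deposited, lower IDs outnumber higher ones between 1.2-fold and 1.5-fold (4603 against 2698). Higher IDs outnumber lower ones between 2-fold and 4-fold (580 against 180).

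The IDs with the smallest adjusted p that rose at least 2-fold were both of the form NewGene, whose origin the files do not give. NewGene_1392 was at 13.8, 13.0 and 11.5 FPKM in WT and at 100.1, 80.5 and 95.3 in those of bhlh58/151-KO. Every double-knockout library was thus several times above every WT library (log2 fold change 2.75, SE 0.099, limma adjusted p = 2.33e-12). NewGene_1136 was at 13.0, 13.1 and 11.8 FPKM in WT and at 71.2, 70.5 and 76.6 in the double knockout. It had nearly the same WT level as NewGene_1392 and a somewhat smaller rise (2.43, SE 0.094, limma adjusted p = 5.77e-12).

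Both NewGene IDs were above WT in each of the other 4 lines as well. For NewGene_1392 the order of mean FPKM was bhlh58-KO (92.2 ± 9.58), bhlh58/151-KO (92.0 ± 10.2), bHLH58-OE (76.3 ± 7.58), bhlh151-KO (68.4 ± 5.62), bHLH151-OE (44.0 ± 3.41) and WT (12.8 ± 1.14; SD, n = 3 each). The values of bhlh58-KO and of the double knockout differed by a log2 of -0.0045 (95% interval -0.21 to 0.20), while the double knockout was above bhlh151-KO by 0.42 (limma adjusted p = 0.00346). For NewGene_1136 the double knockout, at 72.8 ± 3.33 FPKM, lay between both single knockouts. It was below bhlh58-KO, at 98.9 ± 6.52 (log2 difference -0.44, limma adjusted p = 0.00565), and above bhlh151-KO, at 55.6 ± 6.18 (0.39, limma adjusted p = 0.00435). Mean levels of NewGene_1136 in the overexpression lines were 66.2 ± 8.79 FPKM for bHLH58-OE and 42.2 ± 3.70 for bHLH151-OE.

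Among the IDs that fell, PAxG17Gg0168600 had the smallest adjusted p of the comparison. It was at 74.4, 76.2 and 76.2 FPKM in WT and at 10.9, 10.9 and 10.6 in bhlh58/151-KO (a log2 difference of -2.70, SE 0.091, limma adjusted p = 1.48e-12). The libraries of each group were almost equal, and the groups were far apart. This ID was below WT in every line, at 16.1 ± 1.09 FPKM in bHLH58-OE, 13.0 ± 1.89 in bhlh58-KO, 10.8 ± 0.168 in bhlh58/151-KO, 9.37 ± 0.703 in bHLH151-OE and 3.87 ± 0.400 in bhlh151-KO. The double knockout was above bhlh151-KO by a log2 of 1.28 (limma adjusted p = 2.41e-09). Its difference from bhlh58-KO did not pass the test (-0.24, 95% interval -0.43 to -0.051 before adjustment, limma adjusted p = 0.112).

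PAxG11Gg0025800 went from a moderate level in WT to almost no signal in the double knockout. It was at 7.98, 5.69 and 6.48 FPKM in WT, and in bhlh58/151-KO it was listed at 0 in replicates 1 and 3 and at 0.174 in replicate 2 (log2 fold change -2.86, SE 0.13, limma adjusted p = 4.50e-11). A value of exactly 0 may stand for an estimate that failed. The single knockouts and bHLH58-OE were as low, with no library above 0.180 FPKM, whereas bHLH151-OE was at 29.0, 34.6 and 37.3 FPKM, above every WT library. It was thus the one of the 4 named IDs for which 1 line moved against the double knockout (bHLH151-OE against WT 2.17, limma adjusted p = 3.52e-10). The double knockout differed from bhlh58-KO by 0.063 (95% interval -0.20 to 0.33) and from bhlh151-KO by -0.011 (-0.28 to 0.25) on the log2 scale.

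**Figure D2:**
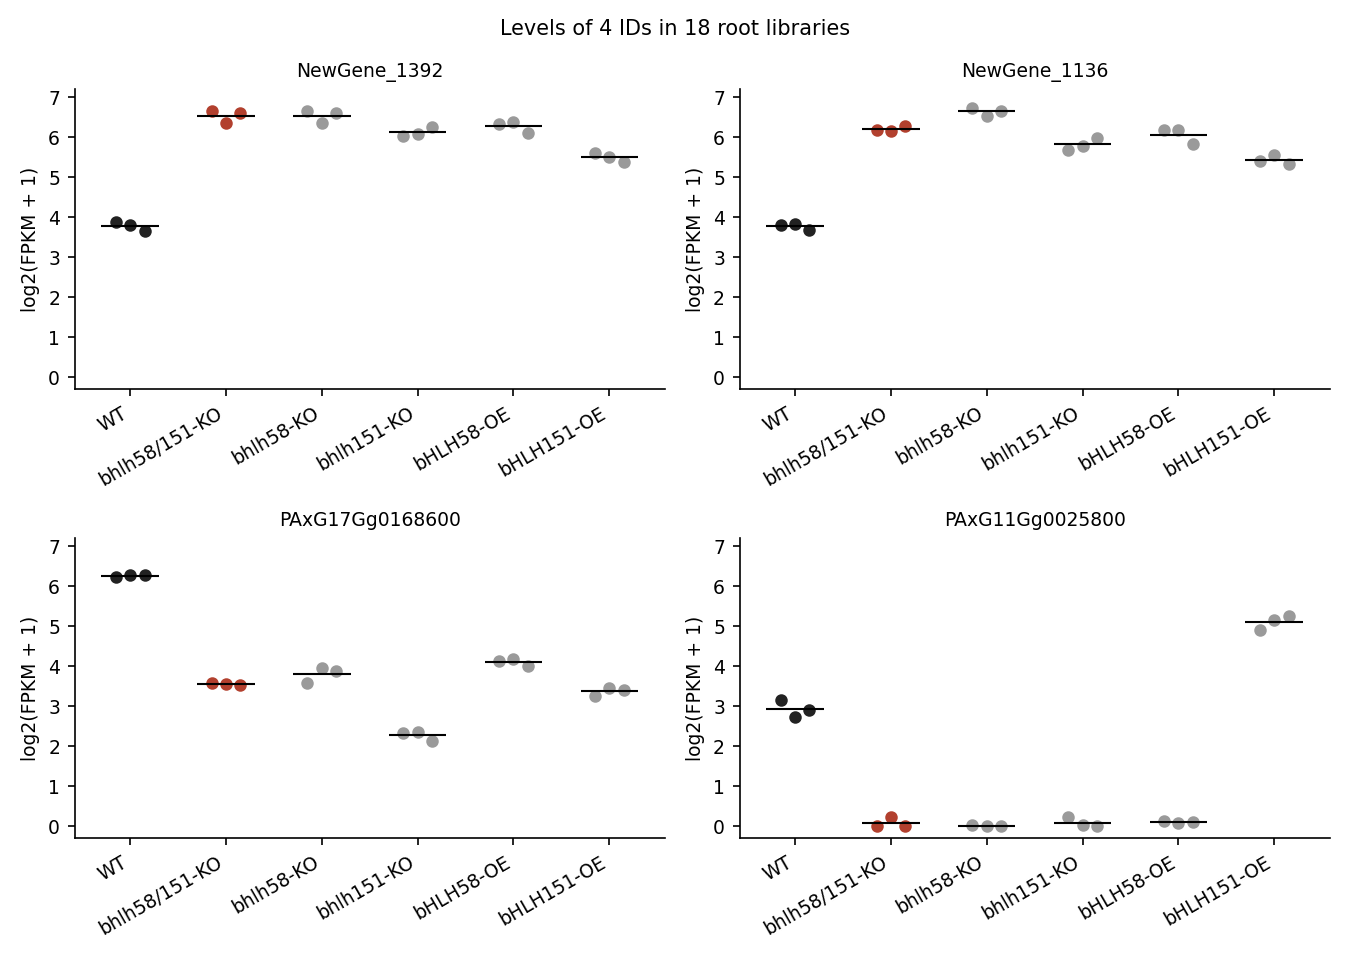
Level on the log2(FPKM + 1) scale (y axis) of NewGene_1392, NewGene_1136, PAxG17Gg0168600 and PAxG11Gg0025800 in each of 18 libraries (points) of 6 genotypes (x axis), with WT in black, bhlh58/151-KO in red, other lines in grey and a bar at the mean of each group. The double-knockout points lie apart from WT in all 4 panels, which the choice of these IDs required. The line bHLH151-OE stands above WT for PAxG11Gg0025800, at 29.0 to 37.3 FPKM.

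The 622 IDs that rose at least 2-fold covered a wide range of levels. Their mean in the double knockout had a median of 13.2 FPKM, with quartiles of 5.77 and 34.8 and a highest value of 604, beside a median of 4.25 FPKM in WT. In the double knockout, 127 were below 5 FPKM and 40 at 100 FPKM or more. Together they held 3.82%, 3.71% and 3.40% of all FPKM in the 3 double-knockout libraries and 1.27%, 1.53% and 1.23% in those of WT. The 188 IDs that fell were lower in level, with a median of 8.08 FPKM in WT and 3.03 in the double knockout. They held 0.610%, 0.597% and 0.638% of all FPKM in WT and 0.208%, 0.215% and 0.247% in the double knockout. These values describe sets that the same libraries chose.

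The same IDs were then followed through the other lines. Each comparison with WT shares its WT libraries with the double-knockout comparison, so the values are set side by side without a test. Those WT libraries helped to choose the IDs, so changes in the direction of the choice are in part built in. For the 622 higher IDs the median log2 fold change against WT was 1.27 in bhlh58/151-KO, 1.13 in bhlh151-KO, 0.75 in bhlh58-KO, 0.67 in bHLH151-OE and 0.46 in bHLH58-OE. Over all tested IDs the medians were -0.064, -0.11, 0.0091, -0.091 and 2.09e-06 in the same order. Of the 622, 568 were called higher in bhlh151-KO, beside 17.6% of all tested IDs. The counts were 452 in bhlh58-KO (beside 12.9%), 405 in bHLH151-OE (beside 11.5%) and 228 in bHLH58-OE (beside 3.3%). For the 188 lower IDs the medians were -1.14 in bhlh58/151-KO, -1.27 in bhlh151-KO, -0.93 in bhlh58-KO, -0.92 in bHLH151-OE and -0.48 in bHLH58-OE. Of these, 173 were called lower in bhlh151-KO, beside 30.8% of all tested IDs. The counts were 166 in bHLH151-OE (beside 20.4%), 151 in bhlh58-KO (beside 9.51%) and 84 in bHLH58-OE (beside 2.07%).

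WT had the lowest of the 6 group means in 507 of the 622 higher IDs and the highest in 167 of the 188 lower IDs, beside 18.0% and 27.8% of all tested IDs. That position follows in part from the choice of IDs, and so does that of the double knockout, given next. The double knockout had the highest mean in 386 of the 622, beside 10.0% of all tested IDs. It had the lowest in 55 of the 188, beside 12.3%. The line bhlh151-KO had the lowest mean in 89 of the 188, and in 36.0% of all tested IDs.

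**Figure D3:**
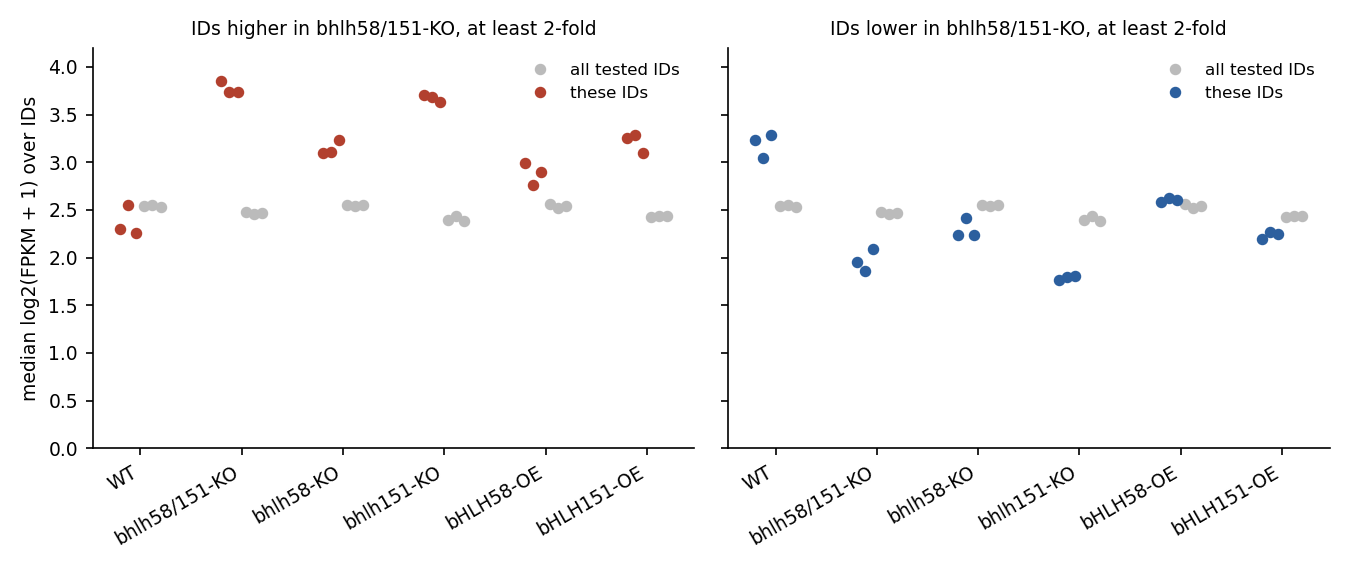
Median log2(FPKM + 1) (y axis) in each of 18 libraries, by genotype (x axis), of the 622 IDs at least 2-fold higher (left, red) and the 188 at least 2-fold lower (right, blue) in bhlh58/151-KO than in WT, with the median of all tested IDs in grey. The red points of the other 4 lines lie between those of WT and of the double knockout, and the blue points of bhlh151-KO (1.77 to 1.81) lie below those of the double knockout (1.86 to 2.09).

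The double knockout was also set against the single knockouts directly. Over all tested IDs, the median log2 difference was -0.059 from bhlh58-KO, with 3.81% called higher and 5.27% lower, and 0.060 from bhlh151-KO, with 15.7% higher and 10.0% lower. Of the 622 higher IDs, 311 were called higher in bhlh58/151-KO than in bhlh58-KO and 5 lower, with a median log2 difference of 0.51. Against bhlh151-KO, 173 were called higher and 81 lower, with a median of 0.25. Of the 188 lower IDs, 51 were called lower than in bhlh58-KO and 12 higher, with a median of -0.26. Against bhlh151-KO, 32 were called lower and 47 higher, with a median near that of all tested IDs. It was 0.047, and -0.026 under quantile normalization. The IDs were chosen on the same double-knockout libraries, so a median away from 0 in the direction of the choice is in part built in.

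The log2 differences between knockout and overexpression of the same gene use none of the 6 libraries that chose the IDs. The calls do use them, since each p-value rests on the spread of an ID over all 18 libraries. That spread also entered the choice, so the counts of calls are not independent of it. In bhlh151-KO against bHLH151-OE, 293 of the 622 higher IDs were called higher, beside 9.39% of all tested IDs, and 26 lower (beside 11.4%). The median log2 difference was 0.46 beside -0.016 over all tested IDs. In bhlh58-KO against bHLH58-OE, 196 were called higher (beside 4.92%) and 18 lower (beside 4.37%), with a median of 0.26 beside 0.0098. The 188 lower IDs went the other way, with 78 called lower and 10 higher in the bHLH151 pair (median -0.34), and 84 lower and 10 higher in the bHLH58 pair (median -0.42). These medians kept their sign with median-of-ratios, quantile and TPM scaling.

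Calls were more frequent at high levels, and so were rises on the values as deposited. Among 9436 IDs with a mean under 2 FPKM over the 18 libraries, 5.73% were called higher and 12.0% lower. At 5 to 20 FPKM the shares were 13.5% and 17.9% of 14253 IDs. At 20 to 100 FPKM they were 33.3% and 16.6% of 4558 IDs, and at 100 FPKM or more 43.2% and 22.7% of 724 IDs. The median SE of the log2 fold change fell over the same range, from 0.16 under 2 FPKM to 0.060 at 100 FPKM or more. The excess of rises at 20 to 100 FPKM was also present under median-of-ratios scaling (41.5% higher, 11.3% lower) and after rescaling to TPM (29.4% and 19.9%), but not under quantile normalization (23.3% and 24.9%), which gives every library the same distribution of values.

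**Figure D4:**
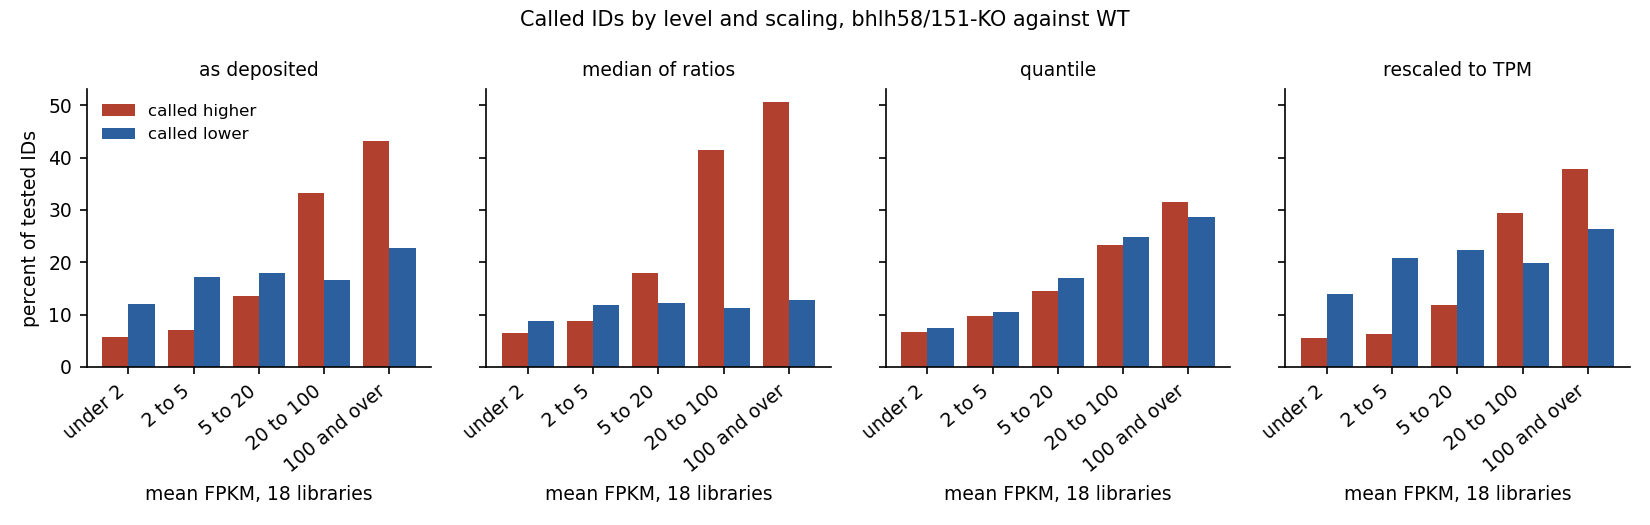
Share of tested IDs called higher (red) and lower (blue) in bhlh58/151-KO than in WT (y axis, percent) by mean FPKM over 18 libraries (x axis), for the values as deposited and 3 other scalings (panels). At 100 FPKM or more, 43.2% were higher and 22.7% lower as deposited, and 31.5% and 28.6% under quantile normalization.

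The IDs come in several forms, whose meaning the files do not explain. Most hold a number from 1 to 19 and the letter A or G. Of 19319 tested IDs with the letter A, 12.7% were called higher and 16.2% lower, and of 18892 with the letter G, 12.5% and 16.3%. Of 2726 tested NewGene IDs, 12.4% were called higher and 17.1% lower. At 2-fold or more, the higher IDs made up 1.52% of A, 1.46% of G and 1.91% of NewGene, and the lower IDs 0.461%, 0.455% and 0.477%. How fragments that match several IDs were assigned is not given in the sources used here, so values of IDs with similar sequence can depend on one another.

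Taken by number and letter, the IDs form 38 sets. The share called ran from 25.6% to 31.7% and the median log2 fold change from -0.10 to -0.040, so the sets were alike as wholes. Relative to its median, the share at 2-fold or more varied more, but far fewer IDs enter it. It had a median of 1.85% over the 38 sets, ran from 0.974% to 4.59% and was highest for the number 11. There it was 4.59% for the letter A (28 higher and 6 lower of 741 tested) and 3.55% for G (10 higher and 2 lower of 338). The number 11 was picked after these values were seen. Whether small counts per set give such a range was not tested.

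Some IDs that rose at least 2-fold followed each other in the order of their serial numbers among the tested IDs. Only IDs with a letter could enter. Of these, 294 with A and 276 with G rose at least 2-fold, and 89 and 86 fell. The IDs that rose formed 75 runs of at least 2, which held 182 IDs, and 21 runs of at least 3, which held 74. The IDs that fell, a smaller set, formed 13 runs, each of 2. How many runs a random order of sets of these sizes would give was not tested. The longest run held 6 IDs with the number 11 and the letter A, with log2 fold changes from 1.60 to 2.59 and limma adjusted p of at most 6.47e-05, and with the libraries of both groups apart for each. Their means ran from 1.09 to 17.6 FPKM in WT and from 10.9 to 73.7 in the double knockout. Their median log2 fold change was 2.1 in the double knockout, 1.43 in bhlh151-KO, 0.74 in bhlh58-KO, 0.68 in bHLH58-OE and 0.63 in bHLH151-OE. These 6 IDs are part of the 28 higher ones of that number and letter. The run was chosen after its values were seen, and whether serial numbers follow the position in the genome was not tested.

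**Figure D5:**
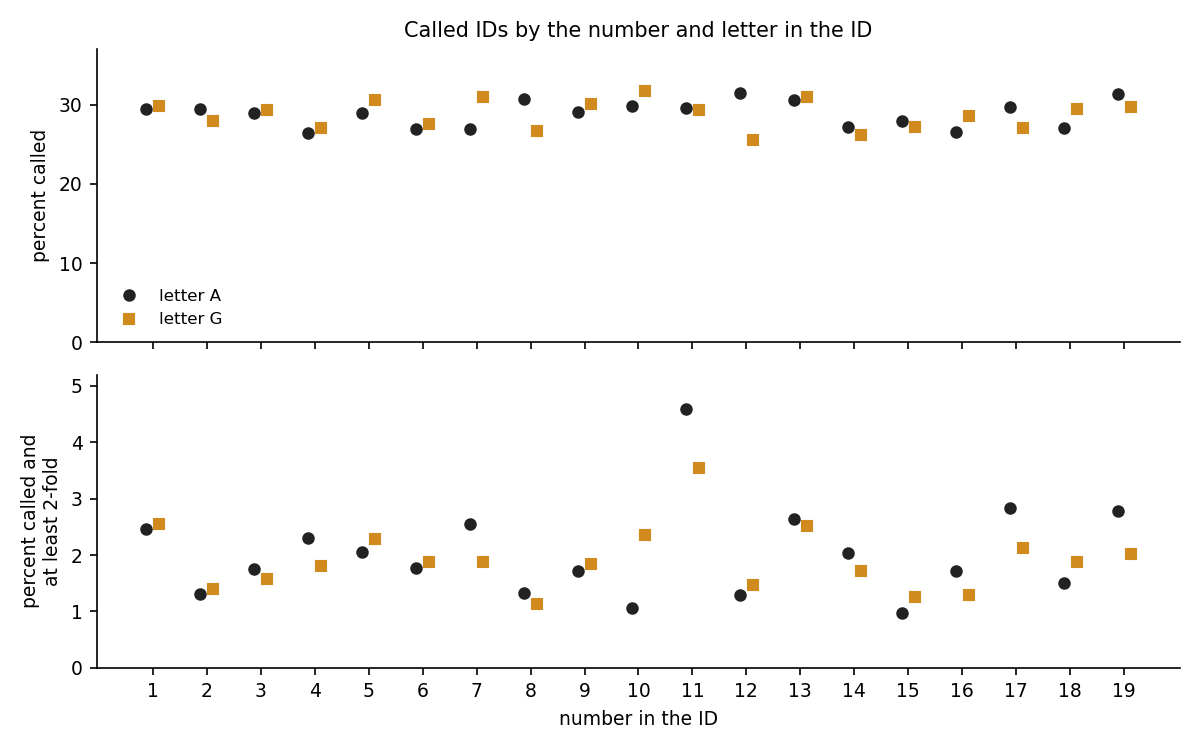
Share of tested IDs called (upper panel) and called with at least a 2-fold change (lower panel) in bhlh58/151-KO against WT (y axes, percent) by the number in the ID (x axis), with circles for the letter A and squares for G. The upper values lie between 25.6% and 31.7%, and the lower ones reach 4.59% and 3.55% at the number 11.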

How the data were processed

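Per the labels' protocols, root RNA came from a RNAprep Pure Plant Kit and was sequenced from libraries of a NEBNext Ultra kit. The deposited table gives FPKM per ID and library, the unit its name states. DESeq2 appears in the submitters' processing notes, without its role. Which aligner, FPKM program, build and annotation served is not given in the sources used here. No whole-read steps were found: over 15 pairs of the 6 libraries, at most 1.34% of the ratios of values under 0.3 FPKM fell in any bin of 0.02 (log2), so no count test was run.

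The deposited FPKM values of IDs that reached 1 FPKM in 3 or more of 18 libraries were taken to log2(FPKM + 1). One linear model over the 18 libraries, with the 6 genotypes as groups and 12 residual degrees of freedom, was fitted in limma 3.58.1 (R 4.3.3; eBayes with trend and robust). P-values were adjusted over all 40951 tested IDs.

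The IDs named are the 2 that rose and the 2 that fell with the smallest adjusted p among those changed at least 2-fold, with both groups apart, 5 FPKM or more on average in the higher group and a value above 0 in each group. There were 493 and 128 candidates. Of 82 symbols in 12 gene lists, markers of other cell types included, 0 matched an ID, so no list was used. The rule, the comparisons and the lists were chosen with earlier results of these data known.

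The alternatives tried were 0.1 as the pseudocount, every ID above 0, IDs averaging 5 FPKM or more, median-of-ratios, quantile and TPM scaling, a fit of 2 groups, a replicate block, no trend or robust estimation, and leaving out each of the 6 libraries.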

Additional observations from a re-analysis of the deposited data

Results flagged for a closer look

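For 3 of the 4 named IDs, the change in the double knockout differed from the summed changes of the single knockouts, all against WT on the log2(FPKM + 1) scale. The value tested is that difference, which is 0 where changes add up. Over all tested IDs, 15.9% were called above 0 and 13.5% below 0 in this contrast, so such a call is common here. It was -2.34 for NewGene_1392 (limma adjusted p = 2.85e-10) and -2.48 for NewGene_1136 (limma adjusted p = 6.21e-11), whose changes were 2.76 and 2.87 in bhlh58-KO and 2.33 and 2.05 in bhlh151-KO. It was 3.74 for PAxG17Gg0168600 (limma adjusted p = 3.31e-13), whose changes were -2.46 in bhlh58-KO and -3.98 in bhlh151-KO. From its WT mean of 75.6 FPKM, those summed changes would lead slightly below 0 FPKM, so a value of 0 was out of reach. The scale thus limits the test of PAxG17Gg0168600 too, although the double knockout, at 10.8 FPKM, was not near 0 FPKM. For PAxG11Gg0025800 the value was 2.91, but both single knockouts were at or near 0 FPKM, so the double knockout could not lie lower and a value of this size was fixed by the scale. It is no test for that ID. The 4 IDs moved the same way in bHLH58-OE, by 2.49, 2.29, -2.16 and -2.82 in the order NewGene_1392, NewGene_1136, PAxG17Gg0168600 and PAxG11Gg0025800. In bHLH151-OE the changes were 1.71, 1.66, -2.89 and 2.17 in the same order, so only PAxG11Gg0025800 moved against the double knockout. WT thus stood apart from both overexpression lines too for these IDs. The IDs were chosen for their difference between the double knockout and WT, which enter this contrast too.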

How the results depend on the processing

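The 4 named IDs kept their direction and their call under all alternatives. They were picked for their small adjusted p, so this says little about the other calls. The largest shift was that of PAxG11Gg0025800, from -2.86 to -5.59 with a pseudocount of 0.1. A pseudocount of 0.1 raised the IDs changed at least 2-fold to 1149 higher and 642 lower, since low IDs then count more. With a mean of at least 5 FPKM, fewer IDs were tested (19535), and 7682 were called, 3726 of them lower, with 414 higher and 88 lower at 2-fold or more. Rescaling to TPM gave 389 lower IDs at 2-fold or more. Total FPKM was 534294 ± 3310 in the double knockout and 518621 ± 3880 in WT (SD, n = 3 each). TPM sets all libraries to the same, larger total. The 1 added before the log2 then weighs less, and double-knockout values are raised less than WT values. How much each of these adds to the 389 was not tested. Leaving out 1 library at a time gave 9147 to 10286 calls, 4085 to 4621 higher and 5062 to 5665 lower, with 568 to 688 higher and 177 to 236 lower at 2-fold or more. Of the 11814 calls, 9747 were kept in the same direction with median-of-ratios scaling, 9653 with quantile and 11216 with TPM scaling. The replicate block gave 11537 calls. The numbers were not taken as pairs, since same-numbered libraries of both groups correlated at only 0.012, 0.019 and 0.034 after subtracting group means, and not every library correlated best with its own number. Depth is unknown and its effect was not tested.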

Other observations

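IDs with the number 11 and the letter G stood apart in how many had signal at all. Of 1393 such IDs in the table, 338 (24.3%) passed the filter, beside a median of 58.6% over the 38 sets of number and letter and 50.1% for the next lowest set. In these IDs, 37.5% were listed at 0 in all 18 libraries, beside 23.5% for the next highest set. The share with at least 1 FPKM was 21.3% to 22.0% in the WT libraries and 21.0% to 21.7% in those of bhlh58/151-KO, so it was low in both groups. PAxG11Gg0025800 belongs to this set by its ID.

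Complete switches between the groups were rare. In the whole table, 1 ID had 0 in all 3 WT libraries but 1 FPKM or more in each double-knockout library, with a mean of 3.44 FPKM there, and it was not called. In the other direction, 1 ID had a mean of 14.5 FPKM in WT and was listed at 0 in the 3 double-knockout libraries, and it was called.

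The spread within groups was alike in size. The median SD of log2(FPKM + 1) over IDs was 0.123 in bhlh58/151-KO and 0.117 in WT, and 315 and 325 IDs spanned at least 2-fold between the libraries of the group. In the 6 groups this number ran from 315 to 443.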
